A study of Arabidopsis thaliana with 27 samples.

Results

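Of the 22810 probe sets on the Affymetrix ATH1 array, 99 detected transcripts that were higher in stamens of the Arabidopsis thaliana mutant opr3 at both 2 and 8 h after jasmonate. A probe set is a group of probes read as one transcript. Membership required that the mean of log2(signal + 16) exceeded that of untreated opr3 stamens by at least 1 at JA 2 h and again at JA 8 h, with a mean signal of at least 100 at either time. Of 102 probe sets that met these limits, 3 were left out by name. They detect JOX2, TBL26 and AT5G12890. The list to leave out also held NAI1, SWEET4, ADPG1 and UDP-glycosyltransferase (UGT) genes. It could be applied only to probe sets paired with 1 gene, so listed genes may remain among the other members. The members were thus chosen by their signals on the untreated, JA 2 h and JA 8 h arrays, and differences between those arrays are described below without a test.

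All treated stamens came from opr3, which lacks the reductase that acts on 12-oxo-phytodienoic acid (OPDA) on the way to jasmonic acid (JA). Flower buds at stage 12 received 0.03% OPDA or 0.03% of what the titles call JA and the treatment descriptions call methyl jasmonate, the methyl ester of JA. Stamens were harvested at 0.5, 2, 8 and 22 h, and 3 untreated opr3 arrays and 1 array of untreated stage 12 stamens of the wild type Ws completed the series. Each treated group held 3 distinct arrays, apart from JA 0.5 h and OPDA 8 h with 2. No mock-treated arrays and no untreated arrays of later hours were analysed here, so time and treatment cannot be told apart in comparisons between hours. Equal percentages are not equal molar amounts of the compounds.

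Jasmonates are lipid-derived hormones that plants make after wounding and during stamen maturation. The active conjugate of JA with isoleucine binds the receptor COI1, which leads to the breakdown of JAZ repressors and frees transcription factors such as MYC2. In stamens the hormone is needed for filament elongation, anther opening and viable pollen, and opr3 plants are male sterile unless they are given JA. OPDA is a cyclopentenone, whereas JA is a cyclopentanone with a shorter side chain. OPDA has activities of its own, and it can also be turned into JA by reactions that bypass OPR3.

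Of the 99 members, 33 were paired with 1 gene, 1 with several genes and 65 with none in the platform annotation used here. Members without a gene are given by probe set identifier only. The tests took in the 14028 probe sets that reached a signal of 50 on 2 or more arrays, among them all 99 members. The median signal of an array lay between 47.5 and 56.9. JA 0.5 h replicates 1 and 2 held identical values at 100% of probe sets and were counted as 1 sample. The replicate 3 array of JA 2 h is titled opr2. The median member difference from untreated was 1.91 on it, and 1.96 and 1.74 on replicates 1 and 2 of JA 2 h. The untreated arrays themselves lay apart, with member medians of -0.31, -0.03 and 0.37 around their common mean for replicates 1, 2 and 3. Without untreated replicate 1 the same limits would be met by 84 probe sets, and without untreated replicate 3 by 128. Whether replicates were separate plants is not given in the labels, so the p-values reflect the spread of these arrays, which may be technical.

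The untreated arrays helped to choose the members, so differences from untreated are descriptions, and shares of all tested probe sets stand beside them as background from which nothing is read. After JA, the differences at 2 and 8 h were fixed to be high by the rule. The median member difference from untreated was 0.36 on the log2 scale at 0.5 h, 1.87 at 2 h, 1.88 at 8 h and 1.08 at 22 h. The highest mean of the 4 JA times was at 2 h for 48 members, at 8 h for 38 and at 22 h for 13, and at 0.5 h for 0. The time of the highest mean was not counted over all tested probe sets. At 0.5 h, 18 members were at least 1 above untreated, against 0.271% of all tested probe sets. At 22 h this held for 51 members, against 7.45% of tested probe sets, while 22 members were under 0.5 and 4 of these were below the untreated mean. The median of all tested probe sets was -0.21 at JA 22 h. The corresponding limits of the rule were met at 2 h by 1.37% and at 8 h by 2.75% of tested probe sets. With a pseudocount of 64 in place of 16, 10 members were at least 1 above untreated at JA 0.5 h.

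**Figure D1:**
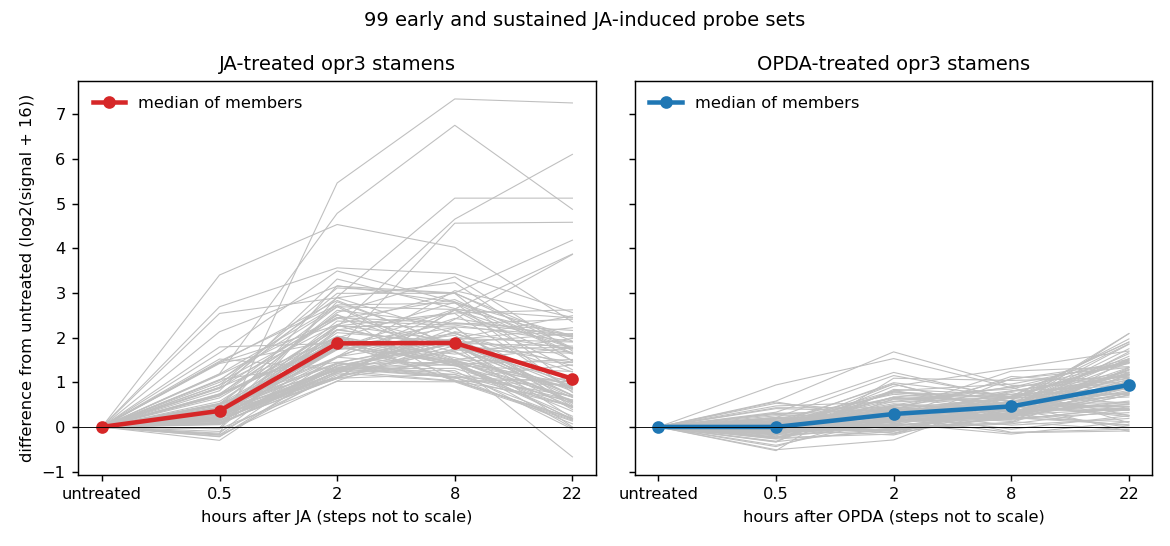
Difference of the mean log2(signal + 16) from untreated opr3 stamens (vertical axis) at 0.5, 2, 8 and 22 h (horizontal axis, steps not to scale) after JA (left) and OPDA (right). Grey lines are the 99 members and the coloured line is their median, which reached 1.87 at JA 2 h and 1.88 at JA 8 h, values that the choice of members fixed to be high, and 0.94 at OPDA 22 h.

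The OPDA arrays were not used by the rule, but the untreated arrays they are set against were. The median member difference from untreated was 0.00 at 0.5 h, 0.29 at 2 h, 0.46 at 8 h and 0.94 at 22 h. A difference of at least 1 was reached by 0 members at 0.5 h, 5 at 2 h, 6 at 8 h and 48 at 22 h. The shares of all tested probe sets were 0.0713%, 0.135%, 0.057% and 3.41%. These counts depend on the pseudocount. With a pseudocount of 1 the limit was met by 3 members at 0.5 h, by 13 at 2 h and by 14 at 8 h. A pseudocount of 64 left 27 at 22 h, 3 at 8 h and 0 at 2 h. For 71 members the highest mean of the OPDA times was the one at 22 h, which was not counted over all tested probe sets. All JA arrays lay above all OPDA arrays for 96 members at 2 h and for 92 at 8 h, against 6.8% and 14.6% of tested probe sets. Those JA arrays were used by the rule, so this is a description. These differences share the 3 untreated arrays, and no likeness between the courses is drawn from them.

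The members just inside and just outside the limits show how narrow the limits were. AT1G63010 was 1.031 above untreated at JA 2 h and AT1G74010 was 1.083, whereas AT2G44500 was left out at 0.97. At JA 8 h, 267008_at entered at 1.019, and CSLA01 was left out at 0.963. GSTU25 entered with a highest mean signal of 108.6, and GRX480 and AT2G38240 stayed out at 91.2 and 87.9.

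The members with the largest rule differences were mostly probe sets without a gene in the annotation. Among the 12 with the largest mean of the JA 2 h and JA 8 h differences, AT2G32150 was the only one paired with 1 gene. The largest was 257220_at, with a mean signal of 5.0 in untreated stamens, 897 at JA 2 h, 3359 at JA 8 h and 3156 at JA 22 h. On OPDA arrays its mean was 16.2 at 8 h and 66.8 at 22 h, and the Ws array read 2213. The 249349_at signal went further apart, with values of 1536, 1321 and 1044 on the JA 22 h arrays and of 2.5, 1.8 and 2.5 on the OPDA 22 h arrays. Both groups of 3 were far from each other, and OPDA 22 h stayed in the range of untreated stamens, which read 6.0, 1.3 and 1.9.

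Other probe sets of these 12 kept the same order with smaller gaps. The mean signal of 254809_at was 3.6 in untreated stamens, 2082 at JA 8 h, 589 at JA 22 h and 68.6 at OPDA 22 h. For 258237_at it was 7.1, 781, 779 and 30.4 in the same groups, and for 254685_at it was 85.4, 2334, 2365 and 213. By contrast, 258395_at was lower at JA 22 h than at OPDA 22 h, with means of 119 and 223, a difference of -0.83 that missed the threshold (limma, adjusted p = 0.12).

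The earliest comparison that the rule did not use was JA against OPDA at 0.5 h. A member was called when its adjusted p was under 0.05 by limma with Benjamini-Hochberg adjustment over 14028 probe sets. At 0.5 h, 7 members were called higher after JA, against 0.0713% of tested probe sets, and 0 were called lower, against 0%. At an unadjusted p under 0.05, 34 members were higher and 0 lower, against 1.44% and 0.813%, and without JA 0.5 h replicate 1 the 34 became 19. The median difference of the members was 0.40 and that of all tested probe sets was 0.00. Within the arrays scanned on the second and the fifth scan day the member medians were 0.68 and 0.27, each from 1 array of either compound. The tested medians were -0.02 and 0.00. The value of 0.68 rests on JA 0.5 h replicate 1, whose identical copy is recorded on the first scan day. It may therefore not compare arrays of the same day. The fit of these groups alone called 3 members, and without JA 0.5 h replicate 1 the count was 4. JA arrays lay above all OPDA arrays at 44 members, against 6.77% of tested probe sets.

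OPCL1 was the called member with a known name at 0.5 h. It encodes the peroxisomal ligase that joins JA precursors to coenzyme A before their side chain is shortened. Its signal was 253 and 146 on the JA 0.5 h arrays and 72.4, 81.7 and 61.8 on the OPDA 0.5 h arrays, with no overlap. The difference was 1.25 on the log2 scale (95% interval 0.83 to 1.68, limma adjusted p = 0.007). The call was lost without JA 0.5 h replicate 1, without OPDA 0.5 h replicate 3 and in the fit of these groups alone. Of the unnamed probe sets, 261033_at read 500 and 314 after JA and 52.9, 57.2 and 67.8 after OPDA, a difference of 2.46 (1.92 to 3.0, adjusted p = 2.6e-05). The difference was 2.36 for 260429_at, 1.96 for 250292_at and 1.6 for 260205_at, with adjusted p of 2.6e-05, 0.00018 and 0.00032 in the same limma fit.

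After OPDA, neither 2 h nor 8 h gave a call against OPDA 0.5 h over the whole array. The limma fit called 0 members in either direction at both times, and 0% of tested probe sets. At an unadjusted p under 0.05, 28 members were higher at 2 h, against 1.6% of tested probe sets, and 31 were higher at 8 h, against 1.48%. In both comparisons 0 members were lower, against 1.31% at 2 h and 1.28% at 8 h. The member medians were 0.26 at 2 h and 0.41 at 8 h, and those of all tested probe sets were 0.01 and -0.02. Without OPDA 0.5 h replicate 1, whose member median was -0.23 against 0.14 and 0.15 on the other OPDA 0.5 h arrays, the counts were 18 at 2 h and 21 at 8 h. Without OPDA 8 h replicate 3 the count at 8 h was 13, and 1 array then stood for that group. With replicate number as a block, 2 members were called higher at 2 h, where the share of all tested probe sets was not counted. One of these was AT4G29700, an alkaline-phosphatase-like enzyme, at 1.17 (adjusted p = 0.55 without the block and 0.038 with it). Its OPDA 2 h signals of 78.9, 59.8 and 59.8 lay above the OPDA 0.5 h signals of 23.2, 11.9 and 27.6.

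By 22 h after OPDA most of the set had risen. Against OPDA 0.5 h, 62 of 99 members were called higher and 0 lower, where 7.51% of tested probe sets were called higher and 8.65% lower. The member median was 0.90 and the tested median was -0.09. On the fifth scan day, the only one with an array of both groups, just 2 arrays were compared. There 92 members were higher at 22 h, which was not counted over all tested probe sets. The member median was 0.84 and the tested median was -0.06. With each array left out in turn, between 46 and 59 members were called higher. With replicate number as a block, 68 were called higher and 2 lower, but the shares of all tested probe sets were not counted with it. One of these 2 was AT1G32920, which read 177, 238 and 349 at OPDA 0.5 h and 169, 138 and 193 at OPDA 22 h, a difference of -0.53 (adjusted p = 0.093 without the block and 0.028 with it).

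Between JA 0.5 h and JA 22 h, members were called in both directions. Here 41 members were called higher at 22 h and 7 lower, against 12.2% and 22.9% of tested probe sets. The member median was 0.45, against -0.20 for all tested probe sets. Called higher at 22 h after both compounds were 33 members, against 5.39% of tested probe sets, among them AT1G13130, AT4G33150, AT1G74010, JAL23, AT2G28400, BPEp, GSTU25 and AT1G63010. The OPDA call of AT2G28400, at 0.81 (limma, adjusted p = 0.046), was lost under 8 alternatives, with an adjusted p of up to 0.23. The 7 that fell included OPCL1, AT3G51450, AT1G61890 and 261033_at, and without JA 0.5 h replicate 1 only 3 were called lower. On the fifth scan day, with 1 array of either time, the member median was 0.61 and the tested median was -0.14.

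Between the compounds at 22 h calls went both ways, and only those higher after JA exceeded the share of all tested probe sets. Members called higher after JA numbered 30, against 6.5% of tested probe sets, and those called higher after OPDA numbered 11, against 12.2%, a share near that of 11.1% among the members. The member median was 0.28 and the tested median was -0.08. The member medians within the 3 scan days that held both compounds were 0.31, 0.17 and 0.31, and the tested medians were -0.12, -0.07 and -0.05. Without JA 22 h replicate 2, the 11 became 7. The comparisons at 22 h share arrays with those between times, so their counts are not independent of each other. The other 58 members were called neither way, which does not show that the compounds acted alike on them, since the 95% interval reached a median of 0.37 to either side over all tested probe sets.

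**Figure D2:**
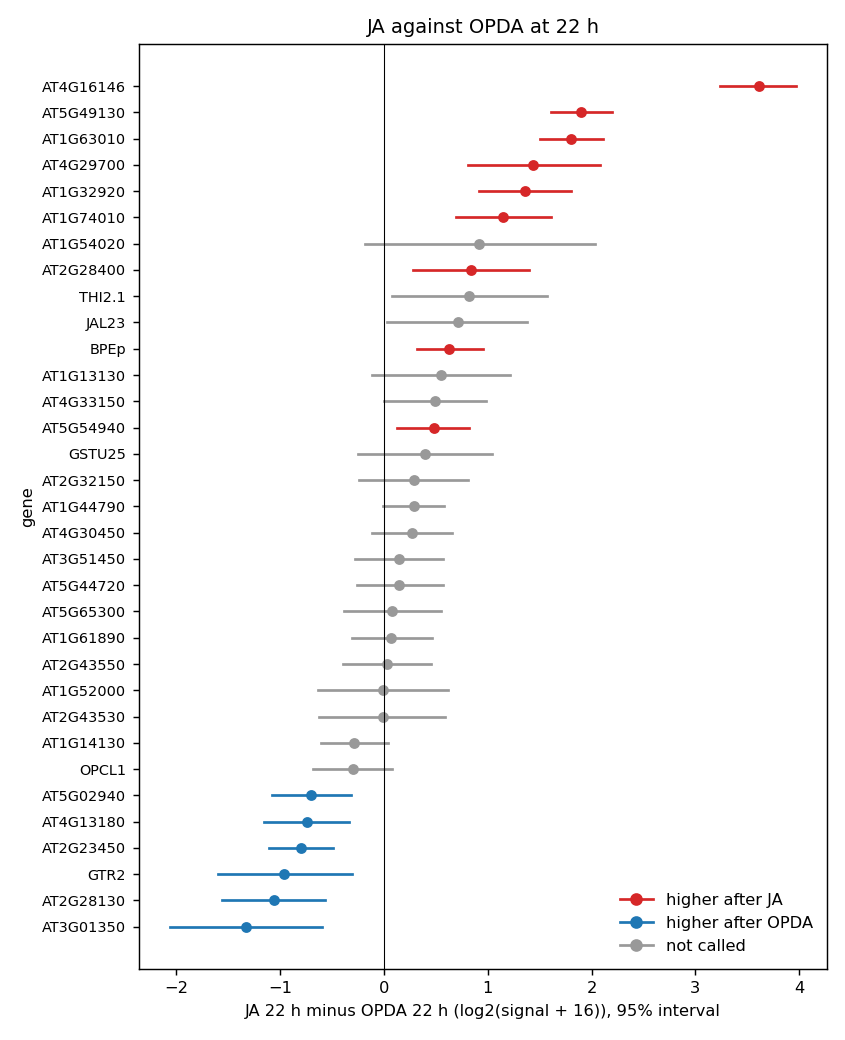
Difference in log2(signal + 16) between JA 22 h and OPDA 22 h (horizontal axis, points) with its 95% interval from the limma fit (lines) for the 33 members paired with 1 gene (vertical axis). Red members were called higher after JA, from AT4G16146 at 3.61 to AT5G54940 at 0.48, and blue ones higher after OPDA, from AT5G02940 at -0.70 to AT3G01350 at -1.33. Grey members were not called.

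The 22 h calls and the change after OPDA sorted the members further. Of the 30 that were higher after JA, 20 had also risen between OPDA 0.5 h and OPDA 22 h, and 10 had no call there. These classes held 1.08% and 5.01% of all tested probe sets. Of the 11 that were higher after OPDA, 10 had risen between OPDA 0.5 h and OPDA 22 h, a class with 0.984% of those tested. A further 32 members rose after OPDA with no call between the compounds at 22 h, and 26 had a call in neither comparison, against 5.44% and 68.8%. Because both comparisons use the OPDA 22 h arrays, these classes are a description of the calls. The change from 0.5 to 22 h was also tested for a difference between the compounds. It was higher after JA for 13 members and lower for 11, against 3.35% and 4.53% of tested probe sets, with medians of -0.31 over the members and -0.08 over all tested. The 11 became 18 with replicate number as a block, 21 with scan day as a block and 5 without JA 0.5 h replicate 1. The shares of all tested probe sets were not counted under these settings, so nothing is read from these counts beside 4.53%.

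**Figure D3:**
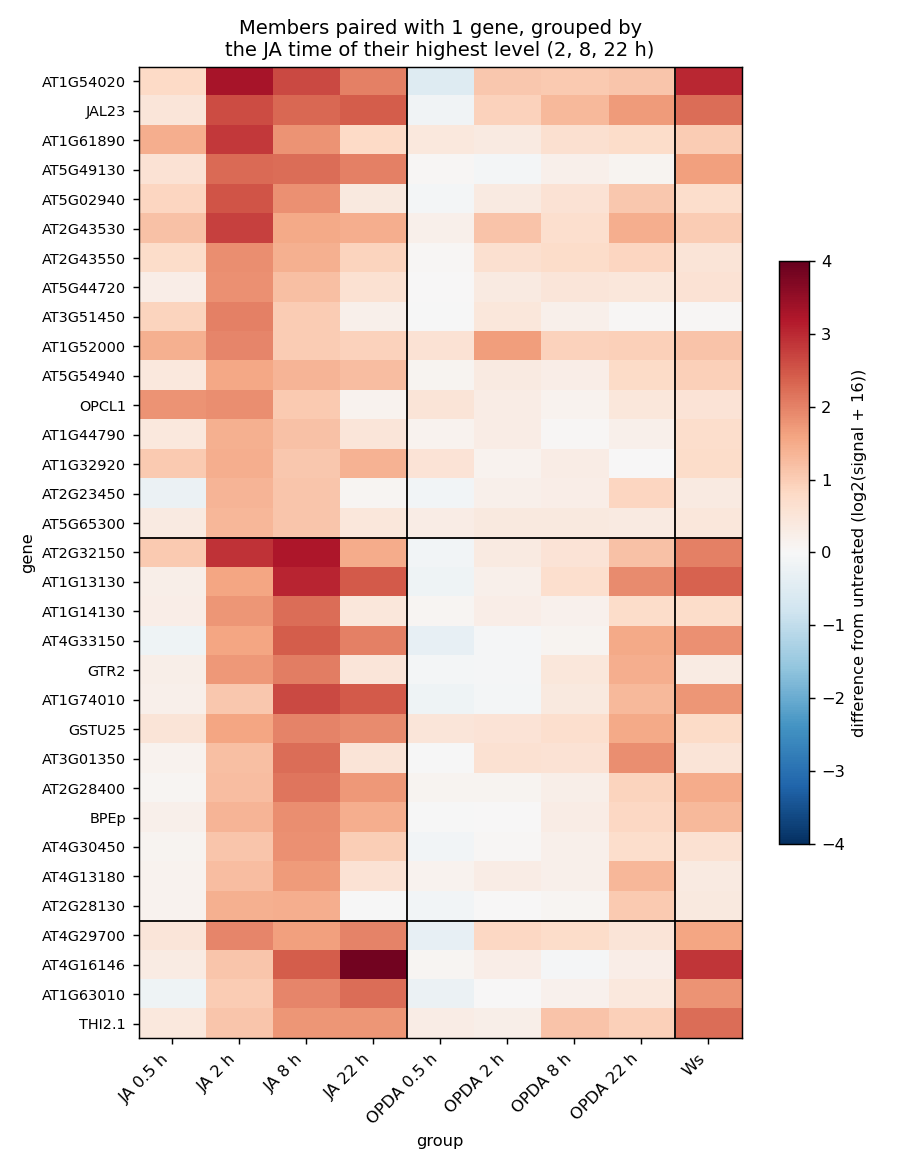
Difference of the mean log2(signal + 16) from untreated opr3 stamens (colour) for the 33 members paired with 1 gene (rows) in the JA and OPDA groups and on the single Ws array (columns). Rows are split by the JA time of the highest mean, and within the rows AT4G16146 is high at JA 22 h and in Ws but not at any OPDA time, while GTR2 and AT3G01350 are high at OPDA 22 h and lower at JA 22 h.

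The transporters held members called in either direction between the compounds at 22 h. Roles given here for loci without a symbol are general knowledge of Arabidopsis gene families and not part of the annotation used. AT5G49130 and AT1G61890 encode efflux carriers of the MATE family. AT5G49130 read 119, 122 and 172 in untreated stamens, 236 and 185 at JA 0.5 h, 717, 747 and 658 at JA 2 h and 648, 590 and 577 at JA 22 h. The OPDA 22 h arrays read 131, 167 and 154, within the untreated range. The difference at 22 h was 1.90 (1.61 to 2.20, limma adjusted p = 1.5e-09), and OPDA 22 h against OPDA 0.5 h gave 0.07 (-0.23 to 0.37, adjusted p = 0.79).

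AT1G61890 took another course. Its signals of 601 and 477 at JA 0.5 h and of 1431, 1249 and 1608 at JA 2 h were followed by 320, 360 and 333 at JA 22 h, next to 355, 278 and 331 at OPDA 22 h. The JA and OPDA arrays overlapped at 22 h, and the difference of 0.07 had an interval of -0.31 to 0.46. From JA 0.5 h to JA 22 h it fell by 0.64 (limma, adjusted p = 0.02), a call lost, among other settings, under median centring and without JA 0.5 h replicate 1 or JA 22 h replicate 1.

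GTR2 and AT3G01350 belong to the NPF family of membrane carriers, and GTR2 moves glucosinolates, the sulphur-rich defence compounds of the cabbage family. GTR2 read 152, 194 and 389 in untreated stamens, 1012, 900 and 1058 at JA 8 h, and 424, 206 and 388 at JA 22 h, which overlapped the untreated arrays. At OPDA 22 h it read 691, 616 and 627, above all OPDA 0.5 h arrays at 129, 274 and 266. It rose by 1.53 after OPDA (0.89 to 2.18, limma adjusted p = 0.0026). JA 22 h minus OPDA 22 h was -0.96 (-1.60 to -0.31, adjusted p = 0.034). That call was lost without a filter, under scaling to the 75th percentile and median centring, without JA 22 h replicate 2 and without any of the OPDA 22 h arrays.

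AT3G01350 showed the same order, with 819, 1002 and 873 at JA 8 h, 414, 170 and 264 at JA 22 h and 834, 760 and 524 at OPDA 22 h. The JA 22 h arrays overlapped the untreated ones at 97.3, 173 and 333. It rose by 1.87 after OPDA (limma, adjusted p = 0.0016), and JA 22 h minus OPDA 22 h was -1.33 (-2.06 to -0.60, adjusted p = 0.0091), a call lost without JA 22 h replicate 2 or OPDA 22 h replicate 1. GTR1, the close relative of GTR2 and no member, had means of 2021 at JA 22 h and 51.3 at OPDA 22 h, a difference of 4.89 in the opposite direction (adjusted p = 8.2e-16).

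AT1G63010, a vacuolar phosphate transporter with an SPX domain, was one of the 13 members with their highest JA mean at 22 h. It read 278, 313 and 327 in untreated stamens, 621, 685 and 619 at JA 2 h, 1195, 1396 and 1097 at JA 8 h and 1793, 1390 and 1304 at JA 22 h. The OPDA 22 h signals of 368, 481 and 398 were above those at OPDA 0.5 h, which were 251, 254 and 277. After OPDA it rose by 0.63 (limma, adjusted p = 0.0058), a call lost without OPDA 22 h replicate 2 and with scan day as a block, and JA 22 h exceeded OPDA 22 h by 1.80 (1.5 to 2.11, adjusted p = 5.6e-09).

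AT5G02940, an ion channel of the plastid envelope, had its highest signals at JA 2 h, at 626, 587 and 471. It read 183 and 153 at JA 0.5 h, 136, 87.3 and 133 at JA 22 h and 199, 227 and 177 at OPDA 22 h, without overlap between the compounds at 22 h. The difference at 22 h was -0.70 (-1.08 to -0.32, limma adjusted p = 0.0091), a call lost without JA 22 h replicate 2. After OPDA the gene rose by 1.16 (adjusted p = 0.00072).

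**Figure D4:**
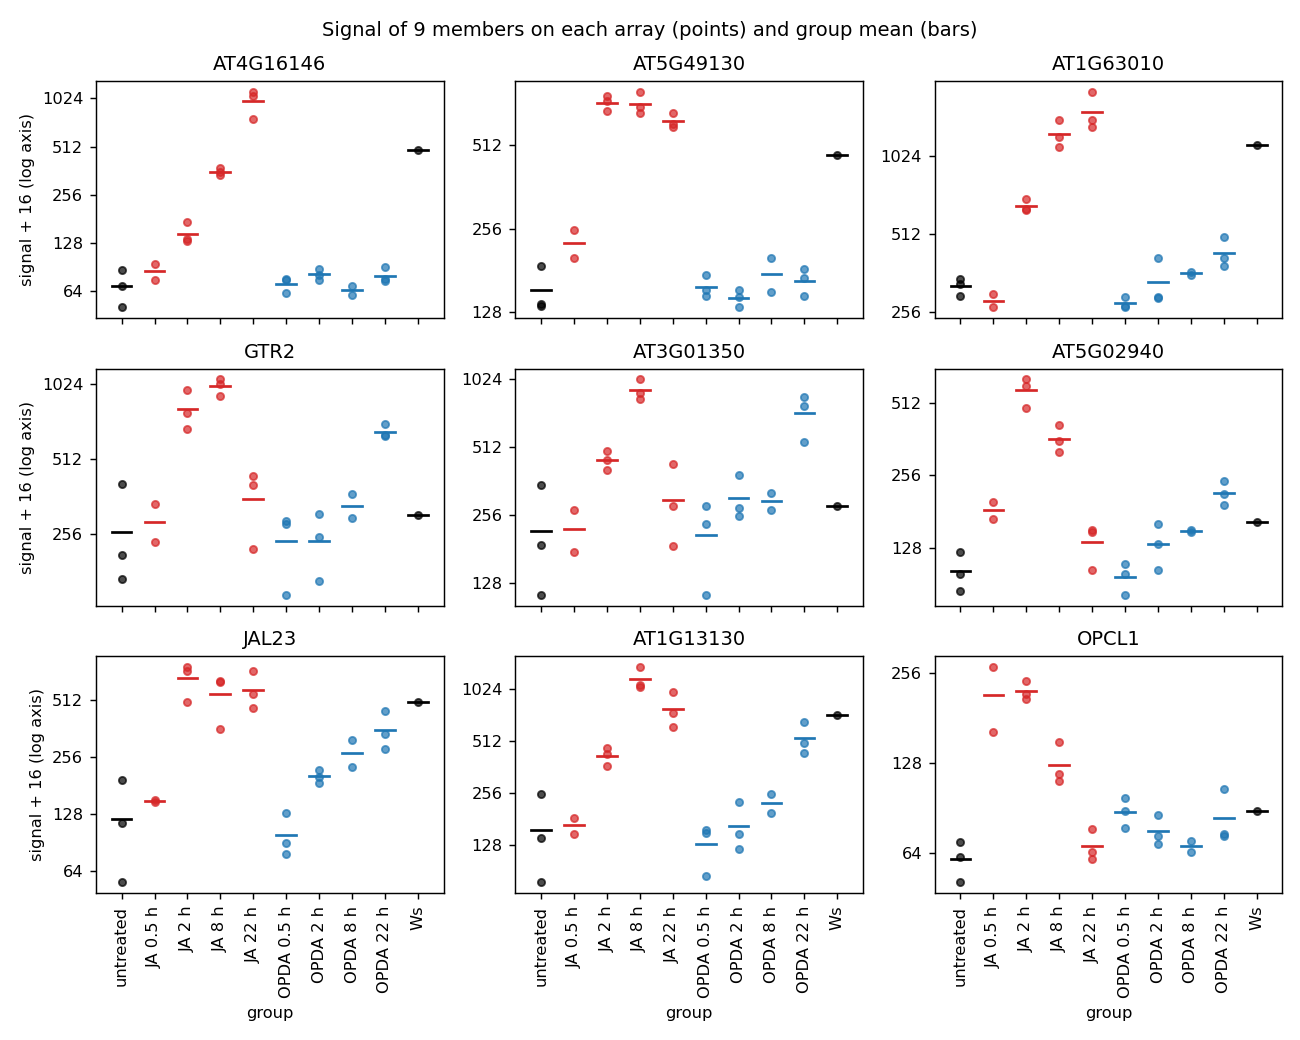
Signal + 16 on each array (points, log axis) and the group mean (bars) of 9 members in the 10 groups, with untreated and Ws arrays in black, JA arrays in red and OPDA arrays in blue. AT4G16146, AT5G49130 and AT1G63010 are far higher at JA 22 h than at OPDA 22 h, GTR2, AT3G01350 and AT5G02940 are lower, and JAL23 and AT1G13130 are high after both.

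Several members are tied to defence. JAL23, a lectin of the jacalin-related family, read 39.5, 98.4 and 176 in untreated stamens, 750, 486 and 713 at JA 2 h, 531, 445 and 712 at JA 22 h and 321, 264 and 430 at OPDA 22 h. It rose by 1.93 from JA 0.5 h to JA 22 h (limma, adjusted p = 0.00032) and by 1.85 from OPDA 0.5 h to OPDA 22 h (adjusted p = 0.0011). All JA 22 h arrays were above the OPDA 22 h arrays. That difference of 0.71 (0.03 to 1.38) had an adjusted p of 0.15 without and 0.05 with replicate number as a block, where it was just called.

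THI2.1, an antimicrobial thionin and a common marker of the JA response, varied between replicates. It read 358, 442 and 363 in untreated stamens, 1777, 666 and 2007 at JA 8 h, 1258, 966 and 2090 at JA 22 h and 968, 419 and 1095 at OPDA 22 h, with replicate 2 the lowest in each of these treated groups. From JA 0.5 h to JA 22 h it rose by 1.37 (limma, adjusted p = 0.011), a call lost without JA 0.5 h replicate 3 or JA 22 h replicate 3. JA 22 h exceeded OPDA 22 h by 0.82 (0.08 to 1.57, adjusted p = 0.12), which missed the threshold. PDF1.2, the other JA response marker named on the array, had a mean signal of at most 16.1 in any group and was not tested.

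AT2G43530 and AT2G43550 encode small defensin-like proteins, and they and the lectin-like AT1G52000 are named after their values were seen. The defensin-like pair lies close together in the RefSeq annotation, with 2 protein-coding genes between them. AT2G43530 read 1408, 1053 and 1270 at JA 2 h, 554, 407 and 557 at JA 22 h and 478, 417 and 648 at OPDA 22 h. AT2G43550 read 1692, 1479 and 1597, then 905, 690 and 815, then 814, 613 and 954 in these groups. At 22 h the compounds overlapped for both, and both rose after OPDA, by 1.24 (limma, adjusted p = 0.0062) and by 0.80 (adjusted p = 0.01).

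AT1G52000 was the member with the largest OPDA 2 h difference among those with a gene. It read 6.4, 23.8 and 44.1 in untreated stamens, 124 and 57.2 at JA 0.5 h, 119, 116 and 82.0 at OPDA 2 h and 40.4, 55.2 and 77.8 at OPDA 22 h. OPDA 2 h minus OPDA 0.5 h was 1.1 (0.47 to 1.72, limma adjusted p = 0.68), with no overlap but no call.

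Among the enzymes, several rose after both compounds. AT1G13130, a cellulase-like glycosyl hydrolase, read 1067, 1367 and 1042 at JA 8 h, 971, 605 and 732 at JA 22 h and 485, 648 and 420 at OPDA 22 h, where the compounds overlapped. It rose by 2.21 from JA 0.5 h to JA 22 h (limma, adjusted p = 6.1e-05) and by 2.06 over the same hours after OPDA (adjusted p = 0.00072). AT4G33150, which encodes the enzyme that starts lysine breakdown, read 3020, 2402 and 1899 at JA 22 h and 1518, 2227 and 1457 at OPDA 22 h. Its rises were 2.19 and 1.85, with adjusted p of 1.9e-06 and 0.00015.

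AT2G32150, a hydrolase of the haloacid dehalogenase family, stood highest at JA 8 h. It read 339 and 274 at JA 0.5 h and 1385, 1632 and 1319 at JA 8 h, then 568, 330 and 379 at JA 22 h and 340, 369 and 304 at OPDA 22 h. The compounds overlapped at 22 h, with a difference of 0.29 (-0.24 to 0.81). After OPDA it rose by 1.3 (limma, adjusted p = 0.002).

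AT1G74010 and AT3G51450 encode strictosidine synthase-like proteins and took different courses. AT1G74010 read 282, 350 and 309 at JA 22 h and 139, 138 and 119 at OPDA 22 h, without overlap. Its difference at 22 h was 1.15 (0.69 to 1.61, limma adjusted p = 0.00055), and after OPDA it rose by 1.47 (adjusted p = 0.00061). AT3G51450 read 126 and 114 at JA 0.5 h, 317, 220 and 318 at JA 2 h and 77.8, 49.3 and 82.9 at JA 22 h. It fell by 0.69 from JA 0.5 h to JA 22 h (adjusted p = 0.023), a call lost under 7 alternatives, among them median centring, quantile normalization and leaving out either JA 0.5 h array or JA 22 h replicate 2.

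AT4G29700 was higher at JA 22 h, at 173, 124 and 204, than at OPDA 22 h, at 49.6, 30.5 and 78.8, by 1.44 (0.81 to 2.08, limma adjusted p = 0.0016). From OPDA 0.5 h to OPDA 22 h it differed by 0.87 (adjusted p = 0.058 without and 0.0041 with replicate number as a block). AT1G54020, a lipase of the GDSL family, had the same order without a call. It read 118, 63.9 and 388 at JA 22 h and 70.6, 35.6 and 126 at OPDA 22 h, a difference of 0.92 (-0.18 to 2.03, adjusted p = 0.26). Its rise of 1.64 after OPDA (adjusted p = 0.04) was lost with a pseudocount of 64, without a filter, without any of the OPDA 0.5 h arrays and without OPDA 22 h replicate 1 or 3. In AT1G54020, AT4G29700 and THI2.1, replicate 2 was the lowest array at JA 8 h, JA 22 h and OPDA 22 h.

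GSTU25, a glutathione S-transferase, read 110, 84.8 and 110 at JA 22 h, 59.0, 61.0 and 105 at OPDA 22 h and 24.1, 32.2 and 26.3 at OPDA 0.5 h. After OPDA it rose by 1.03 (limma, adjusted p = 0.027), a call lost with a pseudocount of 1, without OPDA 0.5 h replicate 1 or 3 and without OPDA 22 h replicate 2 or 3. From JA 0.5 h to JA 22 h it rose by 1.40 (adjusted p = 0.0034), lost without JA 0.5 h replicate 1. Of the 13 probe sets with a GST symbol, 7 were tested, with a median of 0.10 after OPDA. There 2 were called higher and 0 lower, against 7.51% and 8.65% of tested probe sets.

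AT1G14130 encodes an oxidase of the auxin indole-acetic acid, and AT4G13180 a short-chain dehydrogenase-like protein. AT1G14130 read 397, 298 and 392 at JA 8 h, but 94.0, 99.3 and 84.3 at JA 22 h and 135, 110 and 106 at OPDA 22 h. It rose by 0.65 after OPDA (limma, adjusted p = 0.0073), a call lost without OPDA 0.5 h replicate 1, and its 22 h difference between compounds was -0.29 (-0.61 to 0.04, adjusted p = 0.23). AT4G13180 read 143, 123 and 142 at JA 22 h and 215, 224 and 280 at OPDA 22 h, a difference of -0.74 (-1.15 to -0.34, adjusted p = 0.0088).

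AT4G16146, which encodes a small protein related to cAMP-regulated phosphoproteins, had the largest difference between compounds at 22 h among the members with a gene. It read 52.6, 34.6 and 70.1 in untreated stamens, 156, 118 and 115 at JA 2 h, 339, 322 and 362 at JA 8 h and 1109, 1044 and 750 at JA 22 h. The OPDA 22 h arrays read 60.2, 57.5 and 74.4, and the OPDA 0.5 h arrays 46.1, 59.6 and 59.9. JA 22 h exceeded OPDA 22 h by 3.61 (3.24 to 3.97, limma adjusted p = 1.1e-12), and OPDA 22 h minus OPDA 0.5 h was 0.17 (-0.20 to 0.54, adjusted p = 0.56).

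The annotation pairs 1 member with the gene whose symbol is BPEp, which encodes a bHLH transcription factor that limits petal cell size. The gene has several transcripts, and which of them the probes read was not tested. The probe set read 532, 698 and 668 in untreated stamens, 2222, 2738 and 2065 at JA 8 h, 2140, 1564 and 1588 at JA 22 h and 1123, 1322 and 943 at OPDA 22 h. The compounds did not overlap at 22 h, and JA exceeded OPDA by 0.63 (0.32 to 0.95, limma adjusted p = 0.0043), a call lost in the fit of these groups alone. After OPDA it rose by 0.85 (adjusted p = 0.0012). AT2G28400, of a plant family of senescence regulators, read 816, 538 and 751 at JA 22 h and 368, 360 and 414 at OPDA 22 h. Its difference of 0.84 (0.28 to 1.40, adjusted p = 0.033) lost its call without a filter, under quantile normalization, without any of the OPDA 22 h arrays and without JA 22 h replicate 1 or 3.

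AT2G23450, a wall-associated-kinase-like receptor kinase, and AT2G28130 were higher after OPDA at 22 h. AT2G23450 read 160, 161 and 170 at JA 22 h, in the untreated range of 134 to 190, and 288, 330 and 274 at OPDA 22 h. Its difference was -0.80 (-1.11 to -0.49, limma adjusted p = 0.00042), and after OPDA it rose by 0.99 (adjusted p = 0.00065). AT2G28130 read 412, 194 and 343 at JA 22 h and 788, 658 and 530 at OPDA 22 h, a difference of -1.06 (-1.56 to -0.57, adjusted p = 0.0024). AT1G32920 had the opposite order, with 360, 484 and 524 at JA 22 h and 169, 138 and 193 at OPDA 22 h, and its difference was 1.36 (0.92 to 1.80, adjusted p = 5.3e-05).

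The pathway genes could be read only in part. They were matched by symbol, and 8794 probe sets of the array are paired with no gene. Listed genes may be among these, also among the 65 members without a gene, so the counts cover matched genes only. Of 20 genes listed for JA synthesis, 4 were named on the array and tested, OPCL1 among them. At 22 h, 1 of the 4 was called higher after JA than OPDA and 0 lower, against 6.5% and 12.2% of tested probe sets. The median of the 4 was -0.05. The gene called higher was JMT, which makes methyl jasmonate, with means of 578 and 52.0 and a difference of 3.17 (limma, adjusted p = 7.7e-07). From JA 0.5 h to JA 22 h 1 of the 4 rose and 2 fell, against 12.2% and 22.9% of tested probe sets. JMT rose by 1.81 (limma, adjusted p = 0.0012). OPCL1 fell by 1.63 (adjusted p = 3.5e-06) and ORA47, a transcription factor that acts on JA synthesis genes, by 2.13 (adjusted p = 1e-04). Of 24 JA signalling genes 1 was tested under its symbol, MYC3, a bHLH factor held back by JAZ repressors. It was at -0.18 between compounds at 22 h (limma, adjusted p = 0.56). Whether others are among the members without a gene cannot be read from this annotation. Of 10 JA catabolism genes 1 was tested under its symbol, JRG21, at 0.02 (adjusted p = 0.97). Of 25 glucosinolate and ER body genes 2 were tested, GTR1 and GTR2, which were called in opposite directions at 22 h.

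The single Ws array gives the level of the members in untreated wild-type stamens. The median member difference of Ws from untreated opr3 was 1.12, and 57 members were at least 1 higher, against 5.28% of tested probe sets. In Ws, AT4G16146 read 471, AT5G49130 453, AT1G63010 1112 and THI2.1 1883, each above all untreated opr3 arrays. GTR2 at 288 and AT3G01350 at 263 lay within the untreated opr3 range, and AT3G51450 at 60.8 did too. Untreated opr3 arrays were used by the rule, so nothing is read from the 57, and Ws has no replicate, so these are values without a test.

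Other cell types moved over the same hours. Of 18 mature pollen markers 10 were named on the array, and their summed signal was 2947 to 3904 in untreated stamens, 7783 to 12965 at JA 22 h, 4893 to 9812 at OPDA 22 h and 7452 in Ws. Between 0.5 and 22 h, 9 of the 10 rose and 1 fell after JA, and 9 rose and 1 fell after OPDA. Of all tested probe sets, 12.2% rose and 22.9% fell after JA, and 7.51% and 8.65% after OPDA. Between the compounds at 22 h 1 was called higher after JA and 0 lower, against 6.5% and 12.2%. The listed VEX1 is outside the 10, as the annotation gives it as AtVEX1. It differed by -1.36 from JA 0.5 h to JA 22 h (limma, adjusted p = 7.7e-05). Its JA 22 h minus OPDA 22 h was -1.59 (limma, adjusted p = 3.5e-06), and OPDA 22 h minus OPDA 0.5 h was 0.34 (adjusted p = 0.27). The summed signal of the 2 tapetum markers named of 10, ATA27 and AMS, was 182 to 708 in untreated stamens, 4.0 to 34.4 at JA 22 h and 27.0 to 68.0 at OPDA 22 h. That of the 3 green tissue markers named of 14 was 1816 to 2043, 1045 to 1153 and 1848 to 2018, and all 3 were called lower at JA 22 h than at OPDA 22 h. That of the 2 pistil and ovule markers named of 10, INO and SPT, was 160 to 176, 83.3 to 128 and 120 to 187. SWEET9, the only nectary marker named of 6, was 19.4 to 25.8, 55.1 to 391 and 18.7 to 47.7. On the Ws array the tapetum markers summed to 874, the green tissue markers to 1530 and the pistil and ovule markers to 139. SWEET9 read 62.6 there. The lowest group mean of any named marker was 5.0, for ATA27 at JA 22 h, and none was at 0. The defining stamen genes were not analysed here. The part of these shifts in the 22 h results was not tested, and in whole stamens fewer cells of a type and less RNA per cell cannot be told apart.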

How the data were processed

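Stamen RNA was hybridised to 1-colour ATH1 arrays. The deposited values are MAS5 signal intensity on a linear scale, scaled by the authors to a target of 125 per the labels, and MAS5 is named in the submitters' processing notes. The array records supplied the scan day only, and OPDA 8 h replicate 1 has none here. Of 27 arrays 26 were distinct. JA 0.5 h replicate 1 was kept of the identical pair.

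Signals were taken as log2(signal + 16). One mean per group was fitted to the 25 opr3 arrays in 9 groups with limma 3.58.1 in R 4.3.3 (lmFit, eBayes with an intensity trend, 16 residual degrees of freedom, two-sided). P-values were adjusted by Benjamini-Hochberg per comparison over the 14028 probe sets that reached a signal of 50 on 2 or more arrays. The groups compared in the 7 tests hold no array that chose the members. The estimate of the spread comes from all 25 opr3 arrays, so the p-values also draw on the arrays that chose the members. The model was tested on simulated data in which each array varied independently. Such data hold no pairing of arrays, so they do not show how the model acts under the pairing described below. Precision is limited by how many arrays there are. The median half-width of the 95% interval was 0.37 between groups of 3 arrays and 0.42 with a group of 2.

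The members, gene lists and tests were chosen with earlier results of these data known. Members with 1 gene are named for the 12 largest rule differences, the 6 largest and 6 smallest JA 22 h differences, up to 8 calls each way per test, membership in a list, or nearness to a limit. Others are said to be chosen after their values were seen. Promoter and protein sequences were not used here, so the planned motif description was not made.

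Pairing was checked by the correlation of deviations from group means between same-numbered arrays. It was 0.29 to 0.52 for JA 22 h with OPDA 22 h, 0.11 to 0.45 for OPDA 0.5 h with OPDA 2 h and 0.38 to 0.47 for OPDA 0.5 h with OPDA 22 h, over 3 pairs each, so the numbers pair those arrays. The pairing comes from the data and not from the labels. At 22 h same-numbered JA and OPDA arrays also shared their scan day, so replicate number and scan day cannot be told apart there. The main fit holds no block for either. The other comparisons have 2 pairs. Alternatives were other pseudocounts, filters and scalings, array weights, a fit of the compared groups alone, replicate number or scan day as a block, another rule threshold and arrays left out in turn. The duplicated array on its other scan day was added after the data were seen.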

Additional observations from a re-analysis of the deposited data

Results flagged for a closer look

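The change from 0.5 to 22 h was higher after JA than after OPDA for 13 members and lower for 11, against 3.35% and 4.53% of tested probe sets. These are calls of the test of that difference itself (limma, adjusted p under 0.05). A lower change after JA need not be a rise after OPDA, since OPCL1 changed by -0.08 after OPDA (limma, adjusted p = 0.81). Higher after JA were AT4G16146 at 3.36 (adjusted p = 1e-08), AT1G63010 at 1.77 (adjusted p = 9.8e-06) and AT5G49130 at 1.39 (adjusted p = 0.00014). Lower after JA were AT5G02940 at -1.63 (adjusted p = 0.00044), OPCL1 at -1.55 (adjusted p = 7e-04), AT2G28130 at -1.31 (adjusted p = 0.023) and AT1G61890 at -0.97 (adjusted p = 0.033). The AT2G28130 call was lost without either JA 0.5 h array, without replicate 2 of JA 22 h, without replicate 1 of OPDA 0.5 h or of OPDA 22 h, and in the fit of the compared groups alone. The AT1G61890 call was lost under 9 of the alternatives. Without JA 0.5 h replicate 1, 5 members were called lower. With replicate number as a block 18 were, and with scan day as a block 21, or 17 with the duplicated array on its other day. The shares of all tested probe sets were not counted under these settings.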

How the results depend on the processing

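No named call changed direction under any alternative run. Of 54 named calls, 37 held under each alternative and 17 were lost under at least 1. Of 315 recomputed counts, 289 stayed within 1.5 times the reported value. Only members were recounted, so the shares of all tested probe sets under the alternatives are not known. For JA over OPDA at 0.5 h, 12 members were higher with array weights and 3 in the fit of the compared groups alone. From JA 0.5 h to JA 22 h, 4 fell when scan day was a block that placed the duplicated array on its other day. With the replicate block 2 rose from OPDA 0.5 h to OPDA 2 h and with the other scan day 1. With a pseudocount of 1, 1 rose by OPDA 8 h. From OPDA 0.5 h to OPDA 22 h, 2 fell with the replicate block and 1 with either scan day block. The difference of changes was lower after JA for 18 members with the replicate block, 21 with scan day and 17 with its other day. In the comparisons that hold JA 0.5 h or OPDA 8 h, which have 2 pairs, the replicate block moved no other count by over 1.5 times. Among members with a gene, the block changed no call of the paired comparisons beyond those given for JAL23, AT4G29700 and AT1G32920. In the other comparisons it added calls. For JA over OPDA at 0.5 h this was AT1G61890 (limma, adjusted p = 0.066 without and 0.033 with the block). From JA 0.5 h to JA 22 h it was AT1G54020 (0.12 and 0.0043). For the difference of changes these were AT2G28400 (0.25 and 0.038), AT4G13180 (0.14 and 0.041), AT1G32920 (0.11 and 0.022) and AT2G23450 (0.062 and 0.014). Fits with scan day left out OPDA 8 h replicate 1. A rule threshold of 1.5 left 47 members. A difference of at least 1 from untreated was met with a pseudocount of 64 by 10 members at JA 0.5 h, 0 at OPDA 2 h, 3 at OPDA 8 h and 27 at OPDA 22 h, and with a pseudocount of 1 by 3 at OPDA 0.5 h, 13 at OPDA 2 h and 14 at OPDA 8 h. Pseudocounts act most on dim probe sets.

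With each array left out in turn, the rule was met by 84 to 128 probe sets. Members higher after JA than OPDA numbered 4 to 9 at 0.5 h, and at 22 h 23 to 28 were higher and 7 to 13 lower. From JA 0.5 h to JA 22 h 33 to 40 rose and 3 to 7 fell. After OPDA 46 to 59 rose by 22 h and 0 to 1 fell. The difference of changes was higher for 10 to 14 and lower for 5 to 12. A difference of at least 1 from untreated was met by 12 to 21 at JA 0.5 h, 50 to 58 at JA 22 h, 0 to 1 at OPDA 0.5 h, 5 to 7 at OPDA 2 h, 4 to 9 at OPDA 8 h and 45 to 49 at OPDA 22 h. The causes were not tested.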
